A study of Homo sapiens with 30 samples.

Results

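The genes described here are those that an exon array measured with 1 to 3 probe sets, a probe set being a small group of probes against 1 exon or part of an exon. They were found by counting, for each gene symbol of the array's annotation, the exon-level probe sets that carry that symbol and no other. The rule took 1146 of 16941 symbols and 2463 of 287329 probe sets. Of these genes, 301 had 1 probe set, 373 had 2 and 472 had 3. They were set against 10973 genes with 10 to 49 probe sets, which held 209160 probe sets.

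A short list of probe sets did not mean a short list of exons. Of the 1146 genes, 399 (34.8%) also occurred in probe sets annotated with several symbols, against 378 (3.44%) of the genes with 10 to 49 probe sets. GTF2H2, a subunit of the general transcription factor TFIIH encoded in near-identical copies, had 2 probe sets of its own and 49 that it shared with other symbols. MORC4, PTPN21 and ABAT are known multi-exon genes and were taken with 2, 3 and 1 probe sets. The genes are therefore called few-probe-set genes below. By the RefSeq annotation, 972 of them (84.8%) were protein coding, against 98.6% of the genes with 10 to 49 probe sets. The others included 58 long non-coding RNAs, 53 transcribed and 19 other pseudogenes, 24 immune receptor V segments and 2 small nucleolar RNAs.

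The study depleted negative elongation factor, NELF, from T47D cells, an established luminal, hormone receptor-positive breast cancer line. Cells received 10 nM siRNA, fresh medium after 48 hours, and were harvested after 48 hours more. There were 5 groups of 3 arrays: siControl, an siRNA against luciferase, and 1 siRNA group for each of 4 subunits of the complex, siNELF-A, siNELF-B, siNELF-E and siNELF-C. All groups carried an siRNA, and no other agent or genetic change was named in the labels. The arrays of a group are technical repeats by the series' own description, so every p-value below measures the spread between repeats and not between cultures. RNA came from whole cultures, in which fewer cells of a type and less RNA per cell cannot be told apart.

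NELF holds RNA polymerase II shortly downstream of the transcription start until the kinase P-TEFb releases it. Genes with few measured exons include families that have no introns or nearly none. Replication-dependent histone genes are transcribed in S phase and end their mRNA in a stem-loop in place of a poly(A) tail. Olfactory receptors and bitter taste receptors have a single coding exon, and olfactory receptors are known mainly from sensory epithelium. H/ACA small nucleolar RNAs are cut out of the introns of host genes and guide the conversion of uridine to pseudouridine in ribosomal RNA.

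Promoters are shown for IFIT3, the gene that fell most, and for the 5 histone genes that fell most, since of the families listed histone genes had the most members that fell. The sequences are from RefSeq's GRCh38.p14 annotation and run 5′ to 3′ on the gene's own strand, ending at the base before the transcription start. Capitals mark the letters TATAAA, the core of a TATA box, or CCAAT, the core of a CCAAT box, on either strand (TTTATA and ATTGG when read on the other). In IFIT3 capitals also mark 2 GAAA blocks with any 2 bases between them, the form of an interferon-stimulated response element, which lie on the other strand and so read as TTTC. Windows are 120 bases for histone genes and 170 bases for IFIT3.
HIST1H2AB, now H2AC4, chr6:26033619-26033738, minus strand: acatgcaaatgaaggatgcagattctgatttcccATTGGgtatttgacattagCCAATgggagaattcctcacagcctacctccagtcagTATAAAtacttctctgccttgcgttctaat
HIST1H1D, now H1-3, chr6:26234988-26235107, minus strand: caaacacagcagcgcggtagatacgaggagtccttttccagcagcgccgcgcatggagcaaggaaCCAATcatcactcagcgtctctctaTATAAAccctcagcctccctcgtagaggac
HIST1H4D, now H4C4, chr6:26189113-26189232, minus strand: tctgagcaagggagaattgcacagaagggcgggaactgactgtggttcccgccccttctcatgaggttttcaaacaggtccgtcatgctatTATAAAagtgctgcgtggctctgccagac
HIST1H1B, now H1-5, chr6:27867589-27867708, minus strand: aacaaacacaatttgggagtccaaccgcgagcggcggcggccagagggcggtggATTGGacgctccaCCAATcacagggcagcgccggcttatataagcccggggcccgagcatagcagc
HIST1H2BM, now H2BC14, chr6:27814902-27815021, plus strand: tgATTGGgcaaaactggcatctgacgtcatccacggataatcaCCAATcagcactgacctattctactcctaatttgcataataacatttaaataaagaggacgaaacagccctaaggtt
IFIT3, chr10:89327827-89327996, plus strand: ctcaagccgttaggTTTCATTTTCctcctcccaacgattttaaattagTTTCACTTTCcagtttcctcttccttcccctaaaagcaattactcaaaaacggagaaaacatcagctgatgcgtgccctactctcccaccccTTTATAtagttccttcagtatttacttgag

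In HIST1H2AB and HIST1H1D the TATA box letters began 30 bases before the start, and in HIST1H4D 29 bases before it. HIST1H1B and HIST1H2BM did not have these exact letters in the window and had the CCAAT box letters once on each strand. Variants of the TATA box letters were not searched, and HIST1H1B reads tatataa beginning 30 bases before the start. The 2 response-element matches of IFIT3 began 156 and 122 bases before the start.

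Over windows of 250 bases before the start, the TATA box letters were found in 20.1% of 809 few-probe-set genes matched by symbol, in 6.46% of 8923 genes with 10 to 49 probe sets and in 10.7% of all 35116 promoters. The CCAAT box letters were found in 39.2%, 34.3% and 32.0%, and the response-element form in 4.20%, 2.43% and 3.02%, with both strands searched and overlapping motifs counted for each. Among 26 few-probe-set histone genes, 19 held the TATA box letters, 5 of the 8 that fell and 14 of the 18 that were not called. The CCAAT box letters were in 24 of the 26, 7 of 8 and 17 of 18. A match is a description of the sequence and not a binding site.

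Before the few-probe-set genes are described, the targets and the arrays need a word. None of the targets is itself a few-probe-set gene. TH1L, the gene of NELF-C, fell by 3.71 on the log2 scale in siNELF-C (adjusted p = 9.47e-06) and RDBP, the gene of NELF-E, fell by 2.61 in siNELF-E (adjusted p = 2.5e-05). WHSC2, the gene of NELF-A, was at 5.39, 5.58 and 5.92 in siNELF-A against 6.14 to 6.34 in control, a change of -0.61 that did not pass the test (adjusted p = 0.177). NELF-B's own gene was not analysed here, so its depletion in siNELF-B was not checked. SiNELF-B replicate 2 had a mean r of 0.980 with control arrays and of 0.904 with the other siNELF-B arrays, across genes, and for siNELF-B replicate 3 these were 0.853 and 0.884. For the main counts, a fit that leaves out both arrays is shown as well. SiNELF-B then has 1 array, which is assumed to vary like the arrays of the other groups, so its calls in that fit have no replicate of their own. All 10 luminal markers were measured, at control levels between 7.40 and 12.2, and ESR1, PGR and FOXA1 among them fell by 0.99, 0.91 and 0.69 on average. All 5 endothelial and 3 of 4 measured leukocyte markers lay below the 25th percentile of all genes, as did 1 of 5 basal and 1 of 5 fibroblast markers. The brightest of the others were ACTA2 at 7.10 in control, which fell by 1.22, and COL1A1 at 6.10, which was not called. The part of these markers in the results below was not tested.

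Few-probe-set genes were mostly dim in T47D cells. On the log2 scale of the deposited values their median control level was 3.34 (quartiles 2.10 and 5.42), against 5.56 (3.57 and 6.93) for genes with 10 to 49 probe sets. The gene level is the median of the gene's probe sets on an array, and differences between genes in it also carry differences between probes. By the mean over all 15 arrays, 524 few-probe-set genes (45.7%) lay below 3.19, the 25th percentile of all genes, against 20.5% of genes with 10 to 49 probe sets. There were 622 few-probe-set genes at or above that percentile and 412 at or above 4.28, the 40th percentile. At the edge of the rule, the 472 genes with 3 probe sets had a median control level of 3.03 and the 590 genes with 4 had 3.63.

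On the control arrays the median of genes with 10 to 49 probe sets lay 2.06 to 2.32 above that of the few-probe-set genes. It lay 1.68 to 1.99 above on the arrays of siNELF-A, 1.85 to 2.12 on those of siNELF-E and 1.59 to 1.73 on those of siNELF-C. On siNELF-B replicates 1, 2 and 3 it was 1.59, 2.23 and 0.961. Values for siNELF-A and siNELF-C lay below all control arrays, while siNELF-E and siNELF-B each reached into the control range. The median over few-probe-set genes stayed between 3.32 and 3.58 on all 15 arrays, while the median over genes with 10 to 49 probe sets ran from 4.54 on siNELF-B replicate 3 to 5.64 on siControl replicate 3.

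Spread between repeats was larger for few-probe-set genes. The SD between arrays of a group had a median of 0.431 for them and 0.336 for genes with 10 to 49 probe sets. It was 0.505 for genes with 1 probe set, 0.377 with 2 and 0.451 with 3. Single probe sets did not show that order: their median SD was 0.501 in few-probe-set genes and 0.514 in genes with 10 to 49. The correlation between control arrays was 0.962 to 0.970 across few-probe-set genes and 0.987 to 0.989 across genes with 10 to 49 probe sets; it is across genes, which are not independent replicates.

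**Figure D1:**
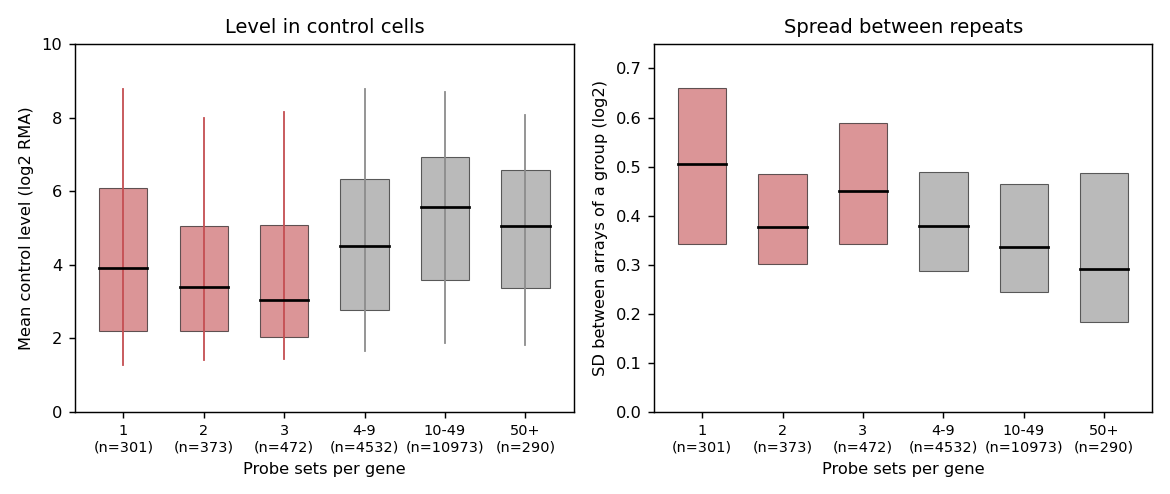
Mean control level (left, log2 RMA value) and SD between arrays of a group (right, log2) by number of probe sets per gene. Boxes run from the 25th to the 75th percentile of genes with the median as a line, thin lines on the left from the 5th to the 95th; the red classes are the few-probe-set genes, whose medians lie between 3.03 and 3.92 on the left, below the 5.56 of genes with 10 to 49 probe sets.

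A gene was called changed at an adjusted p below 0.05 in limma, adjusted over all 16941 genes by the Benjamini-Hochberg method, with a change of at least 1.5-fold. In siNELF-A, 18 few-probe-set genes (1.57%) were called, 4 higher and 14 lower, where 2.34% of all genes were called, 0.283% higher and 2.05% lower. In siNELF-B there were 23 (2.01%), 5 higher and 18 lower, against 3.3% of all genes, 0.106% higher and 3.19% lower. In siNELF-C there were 27 (2.36%), 10 higher and 17 lower, against 5.09% (0.761% higher and 4.33% lower). In siNELF-E there were 26 (2.27%), 5 higher and 21 lower, against 4.26% (0.95% higher and 3.31% lower). In the average contrast, the mean of the 4 knockdowns against control, 30 were called (2.62%), 6 higher and 24 lower, against 4.22% of all genes (0.313% higher and 3.91% lower) and 4.96% of genes with 10 to 49 probe sets. Of these 30, 6, 14 and 4 kept their call without siControl replicate 1, 2 and 3, and all 30 without siNELF-B replicates 2 and 3. The median average change was 0.05 for few-probe-set genes, -0.19 for genes with 10 to 49 and -0.12 for all genes; after quantile normalization these were 0.17, 0.01 and 0.05. At the edge of the rule, 14 of 472 genes with 3 probe sets (2.97%) and 17 of 590 with 4 (2.88%) were called.

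In the average contrast the share called was higher at higher levels in the few-probe-set genes. This order did not hold in siNELF-B, where 3.13% were called between the lower quartile and the median and 1.27% in the next group up. It was 0.763% of 524 genes below the lower quartile of mean level over all genes, 2.78% of 288 between it and the median, 3.82% of 157 up to the upper quartile and 6.78% of 177 above it. In genes with 10 to 49 probe sets it was 1.29%, 6.39%, 6.24% and 5.15%. Without siNELF-B replicates 2 and 3, 92 few-probe-set genes (8.03%) and 18.9% of genes with 10 to 49 were called, and above the upper quartile the shares were 15.8% and 23.7%, the opposite order to that with all arrays. When genes with 10 to 49 probe sets were summarised from only 2 probe sets, 1.67% (lowest identifiers) or 3.19% (middle identifiers) of them were called, and 2.09% or 2.27% of few-probe-set genes in the same fits. No test was made over genes, which are not replicates, and the part of level and of probe set number in the difference between the classes was not tested separately.

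**Figure D2:**
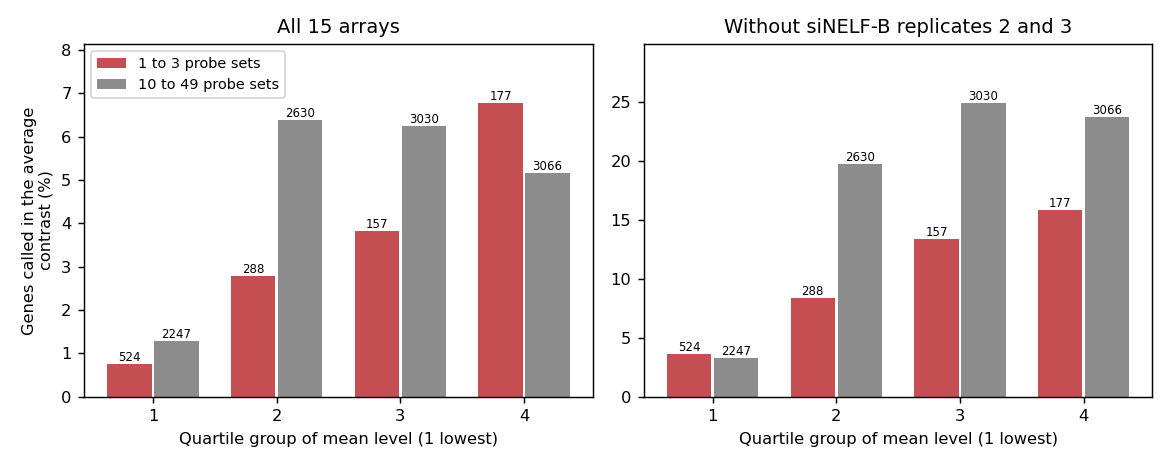
Percent of genes called in the average contrast by quartile group of mean level (1 lowest, 4 highest), with all 15 arrays (left) and without siNELF-B replicates 2 and 3 (right; the axes differ), bars starting at 0 and the number of genes above each. Few-probe-set genes (red) lie below genes with 10 to 49 probe sets (grey) in groups 2 and 3 of both panels, and in group 4 they lie above them on the left (6.78% and 5.15%) and below them on the right.

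The largest fall among few-probe-set genes was that of IFIT3, one of the interferon-induced tetratricopeptide proteins that bind foreign RNA. Its level was 6.54, 6.38 and 5.93 on the control arrays, 2.09, 3.59 and 2.92 in siNELF-A, 2.59, 2.63 and 1.77 in siNELF-B, 2.46, 2.58 and 1.34 in siNELF-E and 2.95, 2.56 and 2.22 in siNELF-C. All 12 knockdown arrays lay more than 2 log2 units below all control arrays. The average change was -3.81 ± 0.32 (SE, 3 arrays per group; adjusted p = 1.6e-05), and the 4 knockdowns lay between -3.42 and -4.16. Its 3 probe sets, at control levels of 2.63, 6.28 and 8.06, changed by -1.32, -3.81 and -3.22. The neighbouring family members, which have more probe sets and were chosen after their values were seen, also fell: IFIT1 changed by -4.88 and IFIT5 by -2.14 (adjusted p = 5.19e-07 and 0.0117), and IFIT2, below the 40th percentile throughout, read 3.62 to 3.95 in control and 2.09 to 3.45 in the knockdowns.

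XAF1, an interferon-induced inhibitor of the anti-apoptotic protein XIAP, was measured with 1 probe set. It was at 6.58 to 6.72 in control, 4.97 to 5.84 in siNELF-A, 6.18 to 6.67 in siNELF-B, 4.59 to 4.95 in siNELF-E and 5.40 to 6.04 in siNELF-C, overlapping control only in siNELF-B. The average change was -1.08 ± 0.19 (SE; adjusted p = 0.00815), lost without siControl replicate 1 (adjusted p = 0.0687) or 3 (0.0631) and when arrays were centred on their medians (0.0577) or on their 75th percentiles (0.0515). IFIT3 and XAF1 were the only 2 few-probe-set members of a list of interferon-stimulated genes, of which 30 of the 45 members with more probe sets also fell (3.91% of all genes called lower). None of the 6 few-probe-set type I interferon genes was called, and all 6 lay below the 25th percentile, IFNA6 at 1.80 to 4.19 on the control arrays being the brightest.

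PARP9, an interferon-induced member of the ADP-ribosyltransferase family that works in a complex with the ubiquitin ligase DTX3L, fell from a high level. Control arrays read 8.80, 9.11 and 9.11, siNELF-A 7.31, 7.06 and 6.79, siNELF-B 7.62, 8.06 and 6.79, siNELF-C 7.53, 7.50 and 7.88, and siNELF-E 8.20, 8.49 and 7.99. All 12 knockdown arrays lay below all control arrays, but the change in siNELF-E, -0.78, did not pass the test (adjusted p = 0.168). The average change was -1.40 ± 0.22 (SE; adjusted p = 0.0038, and 0.0507 without siControl replicate 3). PARP9 differed between knockdowns, being 1.17 higher in siNELF-E than in siNELF-A (adjusted p = 0.0337). DTX3L, which has 15 probe sets and was chosen as its partner after the values were seen, changed by -2.10 (adjusted p = 0.00137).

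**Figure D3:**
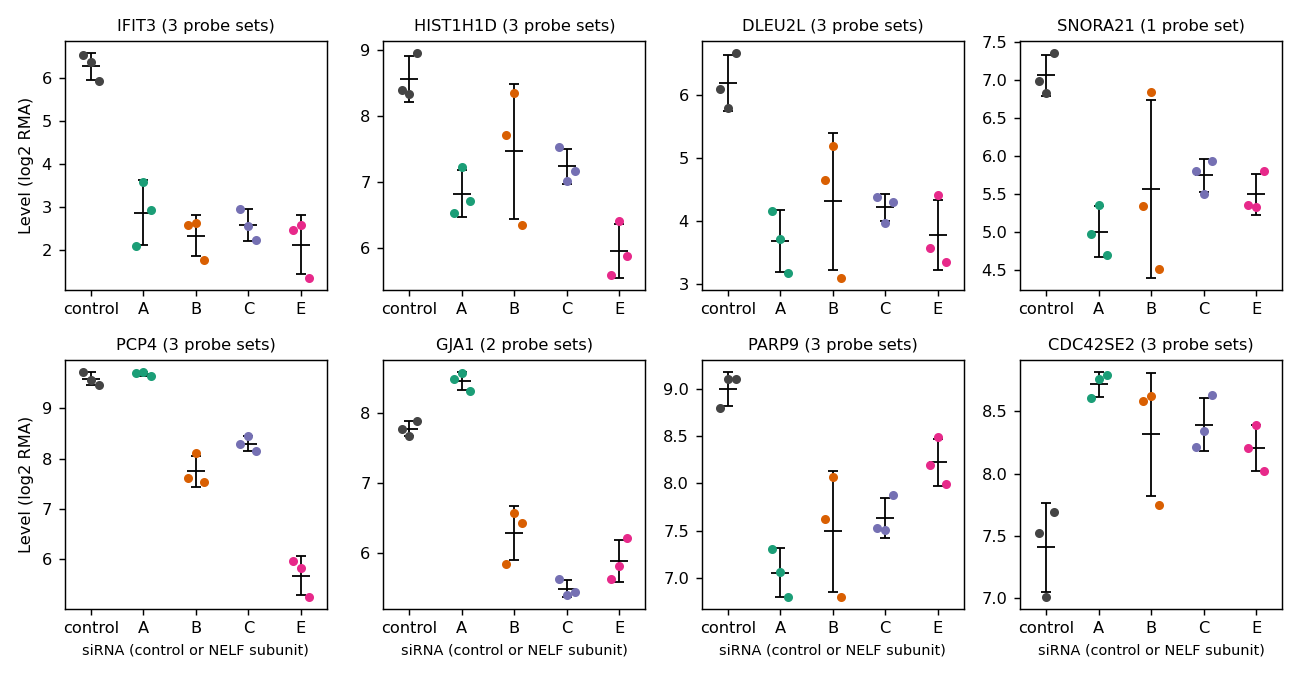
Level on each array (points, log2 RMA value) with the group mean and SD (lines, 3 arrays per group) for 8 few-probe-set genes in control cells and the 4 knockdowns; the vertical axes differ and do not start at 0. PCP4 and GJA1 in siNELF-A stay at or above control while falling in the other 3 knockdowns, IFIT3 is low in all 4, and CDC42SE2 is above all control arrays in all 4.

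Of the families listed, histone genes had the most members that fell. Of 31 few-probe-set replication-dependent histone genes, 9 fell and none rose in the average contrast, where 3.91% of all genes were called lower, with a median change of -0.56 beside -0.12 over all genes. By the mean over all arrays 14 of the 31 lay at or above the 40th percentile, and all of the 9 but HIST1H2AB were among these. In siNELF-E 9 histone genes fell (3.31% of all genes called lower), in siNELF-A 5 (2.05%), in siNELF-C 3 (4.33%) and in siNELF-B 1 (3.19%). The 10 histone genes with 4 or more probe sets had 3 that fell on average, and a median of -0.80. Without siNELF-B replicates 2 and 3, 12 of the 31 fell on average, HIST1H2BG, HIST1H2AM and HIST1H2BL being added, in a fit that called 15.1% of all genes lower. In single knockdowns of that fit more histone genes fell than with all arrays in siNELF-A, siNELF-C and siNELF-B, and as many in siNELF-E. The share of all genes called lower in each is not given here, so this rise was not set against the general rise in calls. After quantile normalization or centring 9 fell, with the replicate block 7, and with array spread as a covariate 1 on average and 9 in siNELF-E.

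Linker histones bind the DNA entering and leaving the nucleosome. By the median of their probe sets, HIST1H1D and HIST1H1B changed most in siNELF-E, though not past the test against every other knockdown. HIST1H1D read 8.39, 8.32 and 8.95 on the control arrays, 6.53, 7.22 and 6.72 in siNELF-A, 7.71, 8.34 and 6.34 in siNELF-B, 5.58, 6.40 and 5.88 in siNELF-E and 7.53, 7.02 and 7.16 in siNELF-C. Only siNELF-B replicate 2, at 8.34, overlapped control. The average change was -1.69 ± 0.32 (SE; adjusted p = 0.0106), and the change in siNELF-E was -2.60 (adjusted p = 0.00185). HIST1H1D was 1.51 lower in siNELF-E than in siNELF-B (adjusted p = 0.0389), and its differences from siNELF-A and siNELF-C did not pass the test (0.32 and 0.0895).

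HIST1H1B read 9.78, 9.29 and 9.45 in control, 8.14, 8.77 and 8.11 in siNELF-A, 8.14, 9.54 and 8.58 in siNELF-B, 7.30, 7.56 and 6.83 in siNELF-E and 8.52, 7.98 and 8.61 in siNELF-C. Again siNELF-B replicate 2 alone overlapped control. The average change was -1.33 ± 0.26 (SE; adjusted p = 0.013), and in siNELF-E it was -2.27 (adjusted p = 0.0013). HIST1H1B was 1.52 lower in siNELF-E than in siNELF-B (adjusted p = 0.0193). Its differences from siNELF-A and siNELF-C did not pass the test (0.0896 and 0.0695). Its dimmest probe set, at 3.39 in control, changed by -2.30 in siNELF-C and -1.95 in siNELF-E. The average call of HIST1H1B was lost without any 1 of the control arrays, at an adjusted p of up to 0.106, and that of HIST1H1D without siControl replicate 1 or 3, at up to 0.113.

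Among core histone genes, HIST1H2BM, which encodes an H2B, read 9.37 to 9.73 in control, 7.59 to 8.69 in siNELF-A, 9.18 to 9.69 in siNELF-B, 6.82 to 7.73 in siNELF-E and 8.38 to 8.68 in siNELF-C. The siNELF-B arrays overlapped control and the others did not. It changed by -1.33 in siNELF-A (adjusted p = 0.0298) and by -2.33 in siNELF-E (0.000452), and it was lower in siNELF-E than in siNELF-B (by 2.10, adjusted p = 0.00211) and siNELF-C (by 1.28, 0.0261). It was also 1.00 lower in siNELF-E than in siNELF-A, which did not pass the test (adjusted p = 0.0832). Its average call was lost without siControl replicate 1 or 3, at up to 0.1, and its siNELF-A call without any 1 of the control arrays or siNELF-A replicate 1 or 3, at up to 0.14. HIST1H2AB, an H2A gene near the 40th percentile in control at 4.62, 3.71 and 4.61, lay between 1.21 and 3.27 on the knockdown arrays, with no overlap. Its average change of -2.17 ± 0.39 (SE; adjusted p = 0.00815) was lost without siControl replicate 1 or 3, at up to 0.0877. HIST1H4D, an H4 gene, lay at 6.54 to 7.46 in control and 4.58 to 6.42 in the knockdowns, with an average change of -1.48 ± 0.35 (SE; adjusted p = 0.0282, up to 0.228 without 1 array).

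The other histone genes that fell are named as members of this count of 9 and not by the rule on naming: HIST3H2BB changed by -1.17, HIST1H2BH by -0.99, HIST1H3I by -0.97 and HIST2H2AB by -0.94 on average (adjusted p = 0.0386, 0.0061, 0.0179 and 0.0251). Each of these 4 lost its average call without siControl replicate 1 or 3, at an adjusted p of up to 0.232, and HIST3H2BB lost it in 9 of the 15 fits without 1 array. In siNELF-E, HIST1H2BL also fell (by 1.04, adjusted p = 0.0199, up to 0.0965 without 1 array). The siNELF-E calls of HIST1H1D, HIST1H1B, HIST1H2BM, HIST1H2BH, HIST1H3I and HIST2H2AB were kept in all 15 fits that left out 1 array. SiNELF-E did not differ from siNELF-A past the threshold for HIST1H2BH, HIST1H3I, HIST2H2AB and HIST3H2BB (adjusted p = 0.219, 0.664, 0.221 and 0.593). It was lower than siNELF-B for HIST1H2BH, HIST1H3I and HIST2H2AB (0.00243, 0.0249 and 0.0347). It was lower than siNELF-C for HIST1H2BH and HIST2H2AB (0.0144 and 0.0484). The H2B genes HIST1H2BD, HIST2H2BE and HIST1H2BK were chosen after their values were seen and are known also to give polyadenylated mRNA. None of them was called in any knockdown with all arrays. In siNELF-E they changed by 0.47, 0.47 and 0.03, and in siNELF-A by -1.27, -1.11 and -0.62. In siNELF-B HIST1H2BD changed by -2.37 (adjusted p = 0.0572) and HIST1H2BK by -0.50. On average these 2 changed by -0.82 and -0.36. Without siNELF-B replicates 2 and 3, HIST2H2BE was called lower in siNELF-A (by 1.11, adjusted p = 0.00992) and HIST1H2BD on the 1 siNELF-B array left. HIST1H2BD was 2.84 higher in siNELF-E than in siNELF-B (adjusted p = 0.0247), the opposite order to HIST1H2BM.

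**Figure D4:**
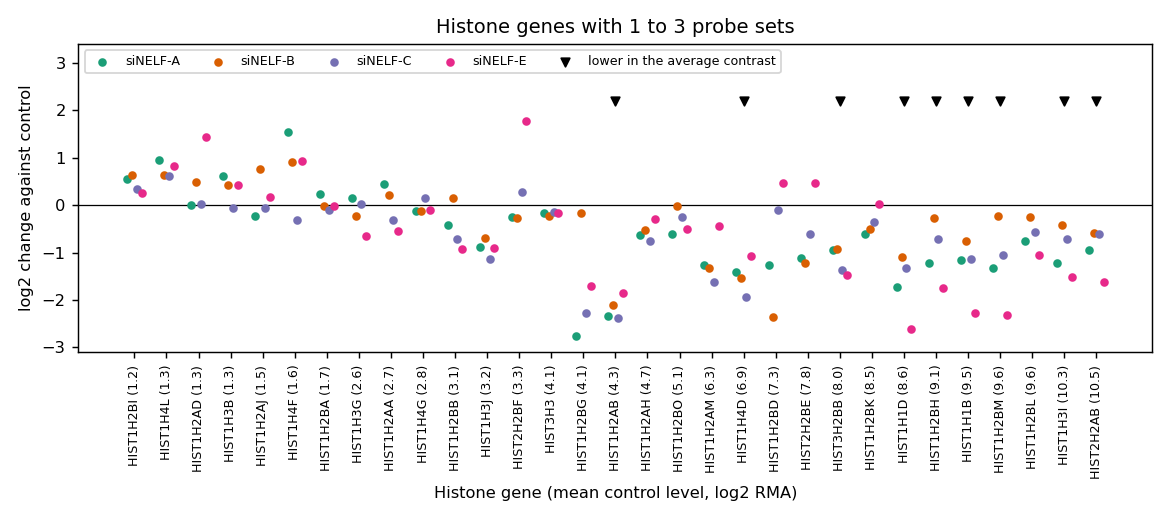
Change in each knockdown against control (log2, points) for the 31 histone genes with 1 to 3 probe sets, ordered by mean control level, which is printed beside each name. Triangles mark the 9 called lower in the average contrast, all at a control level of 4.31 or more; siNELF-E (pink) is the lowest point for 7 of them, and 17 of the genes lie below the 40th percentile of all genes over the 15 arrays.

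Both small nucleolar RNAs among the few-probe-set genes fell in the average contrast, where 3.91% of all genes were called lower. SNORA21, an H/ACA guide RNA encoded in an intron of the ribosomal protein gene RPL23, read 6.99, 6.84 and 7.36 on the control arrays. It read 4.97, 5.35 and 4.69 in siNELF-A, 5.34, 6.84 and 4.51 in siNELF-B, 5.35, 5.32 and 5.81 in siNELF-E and 5.80, 5.50 and 5.93 in siNELF-C. Only siNELF-B replicate 2 reached the lowest control array. The average change was -1.61 ± 0.33 (SE; adjusted p = 0.0162), and without any 1 of the control arrays it was lost, at up to 0.145.

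RPL23 is itself a few-probe-set gene and did not pass the test, at 10.3 in control and with an average change of 0.16 (adjusted p = 0.72). Its 3 probe sets did not move alike: those at control levels of 10.3 and 11.2 changed by 0.18 and 0.04, and the one at 6.31 changed by -1.52 (adjusted p = 0.123). Another 2 probe sets, annotated to both RPL23 and SNORA21 at a control level of 12, changed by a median of -0.25. SNORA66, encoded in an intron of RPL5, lay below the 40th percentile in all groups, at 4.97, 3.33 and 4.01 in control and 1.05 to 3.32 on the knockdown arrays, and was called in the average contrast (adjusted p = 0.0231, lost without siControl replicate 1 or 3, at up to 0.177). RPL5, chosen as its host, changed by -0.28 (adjusted p = 0.313).

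PCP4, a small calmodulin-binding protein, differed between the knockdowns. Its level was 9.73, 9.56 and 9.47 in control and 9.70, 9.71 and 9.64 in siNELF-A. It was 7.62, 8.10 and 7.53 in siNELF-B, 5.96, 5.83 and 5.24 in siNELF-E and 8.29, 8.44 and 8.15 in siNELF-C. The siNELF-A arrays lay inside the control range and the siNELF-E arrays more than 3 units below it. Against control it changed by -3.91 in siNELF-E (adjusted p = 5.1e-07), -1.29 in siNELF-C (0.00683), -1.83 in siNELF-B (0.000975) and 0.10 in siNELF-A (0.888), and by -1.73 ± 0.17 (SE) on average (9.29e-05). PCP4 was 15.0-fold lower in siNELF-E than in control, and lower in siNELF-E than in siNELF-C (by 2.62, adjusted p = 1.93e-05), siNELF-B (by 2.08, 0.000344) and siNELF-A (by 4.01, 3.59e-07).

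GJA1, a connexin that forms gap junctions, showed a similar split. It read 7.77, 7.68 and 7.89 in control, 8.50, 8.57 and 8.31 in siNELF-A, 5.84, 6.58 and 6.42 in siNELF-B, 5.62, 5.81 and 6.21 in siNELF-E and 5.63, 5.39 and 5.44 in siNELF-C. SiNELF-A lay above all control arrays and the other knockdowns below them. The change in siNELF-A was 0.68 and did not pass the test (adjusted p = 0.132), and those in siNELF-B, E and C were -1.50, -1.90 and -2.29 (0.00458, 0.000218 and 6.63e-05). GJA1 was lower than in siNELF-A by 2.58 in siNELF-E, 2.97 in siNELF-C and 2.18 in siNELF-B (adjusted p = 2.01e-05, 1.07e-05 and 0.000179), while siNELF-E and siNELF-C differed by 0.39 (0.338). IFIT3, PCP4 and GJA1 were the 3 few-probe-set genes that kept their average call in all 15 fits that left out 1 array and in every other setting in which they were tested.

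The remaining genes that fell in the average contrast were in none of the gene lists examined. DLEU2L, a relative of the long non-coding RNA gene DLEU2, read 6.10, 5.79 and 6.67 in control and 3.09 to 5.19 in the knockdowns, without overlap. It changed by -2.19 ± 0.36 (SE; adjusted p = 0.00471, and 0.0684 without siControl replicate 3), and its 2 shared probe sets by a median of -1.97. DLEU2, chosen as its relative, lay below the 40th percentile, at 3.38 to 4.10 in control and 1.58 to 3.05 in the knockdowns. FGFBP1, a secreted protein that frees fibroblast growth factors from the matrix, read 5.70, 5.71 and 5.63 in control and 3.48 to 4.92 in the knockdowns. It changed by -1.43 ± 0.24 (SE; adjusted p = 0.00576). Its 3 probe sets changed unequally, by -0.68, -1.74 and -0.54 (adjusted p = 0.437, 0.0274 and 0.373 when tested singly). All 4 knockdowns were called, from -1.75 in siNELF-C to -1.28 in siNELF-B. The siNELF-A and siNELF-E calls were each kept in 10 of the 15 fits without 1 array (adjusted p up to 0.14 and 0.114), and the siNELF-C call in 14. The siNELF-A call was also lost after quantile normalization, with the replicate block and with means of probe sets. The siNELF-B call was kept in 4 of the 15 fits without 1 array (adjusted p up to 0.143) and was lost after quantile normalization or centring, with array spread as a covariate, with the replicate block and without siNELF-B replicates 2 and 3 (0.0651). Without siControl replicate 1 or 3 the adjusted p of the average change was 0.0553 or 0.0533.

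GTF2H2 read 5.06, 4.92 and 5.31 in control, 2.98 to 3.28 in siNELF-A, 2.69 to 4.04 in siNELF-B, 4.10 to 4.57 in siNELF-E and 3.41 to 4.15 in siNELF-C. Its average change of -1.45 ± 0.24 (SE; adjusted p = 0.00457, and 0.0631 without siControl replicate 3) was not matched by the 49 probe sets it shared with other symbols, whose median was -0.41. MORC4, a member of the MORC family of nuclear ATPases, changed by -1.42 on average (adjusted p = 0.0358), most in siNELF-C at 4.70, 3.97 and 4.51 against 6.93, 6.38 and 6.91 in control, and lost its call in 11 of 15 fits without 1 array, at up to 0.21. FLJ37201 changed by -1.35 (adjusted p = 0.00457, and 0.0519 without siControl replicate 1), most in siNELF-B, where it read 2.53, 2.79 and 2.21 against 4.54 to 4.74 in control. RNF26, NXPH2 and UBE2D3P, named to complete the count of 24, each lost their call in 10 or 11 of the 15 fits. RNF26 changed by -0.92 (adjusted p = 0.0406). NXPH2 and UBE2D3P lay below the 40th percentile, NXPH2 at 3.35 to 3.93 in control and 1.95 to 3.21 in the knockdowns, and UBE2D3P at 2.92 to 3.73 and 1.62 to 3.70.

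Fewer few-probe-set genes rose than fell. CDC42SE2, a small adaptor that binds the GTPase CDC42, read 7.53, 7.01 and 7.70 in control, 8.60, 8.76 and 8.79 in siNELF-A, 8.58, 8.62 and 7.75 in siNELF-B, 8.21, 8.39 and 8.02 in siNELF-E and 8.21, 8.34 and 8.63 in siNELF-C. All 12 knockdown arrays lay above all control arrays. CDC42SE2 was called in siNELF-A and siNELF-C, but not in siNELF-B (adjusted p = 0.0575) or siNELF-E (0.106). The siNELF-A call was kept in 12 of the 15 fits without 1 array, and the siNELF-C call in 3. The average change was 1.00 ± 0.20 (SE; adjusted p = 0.0138, and up to 0.111 without 1 of the control arrays). ABAT, the mitochondrial enzyme that breaks down the neurotransmitter GABA, rose by 0.82 ± 0.18 (SE; adjusted p = 0.0231, up to 0.146 without 1 array), from 5.58 to 6.13 in control to 7.0 to 7.05 in siNELF-C, the knockdown in which it was called alone. TCL1B and ZBED2 were also called higher, but their means lay below the 40th percentile in every group: TCL1B read 2.15 to 2.74 in control and 3.62 to 4.70 in siNELF-E, and ZBED2 2.60 to 2.74 in control and 3.42 to 3.96 in siNELF-C. The ZBED2 average call was lost without any 1 of the control arrays, at up to 0.119, and its siNELF-B call without siNELF-B replicates 2 and 3 (0.111).

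WASH3P, a pseudogene of the WASH complex subunit that promotes actin branching on endosomes, and GOLGA6, of a golgin family with many copies, completed the 6 that rose. WASH3P read 4.83, 4.52 and 3.71 in control and 5.60, 5.69 and 5.72 in siNELF-C. It changed by 1.15 ± 0.27 (SE; adjusted p = 0.028, up to 0.254 without 1 of the control arrays, and 0.24 when its 3 probe sets were averaged), and the 36 probe sets it shared with other symbols by a median of -0.05. GOLGA6 read 4.24, 3.44 and 3.99 in control and 6.04, 5.34 and 6.97 in siNELF-B. Its 1 own probe set changed by 1.23 ± 0.31 (SE; adjusted p = 0.0406, lost in 12 of 15 fits without 1 array, at up to 0.206), and its 44 shared probe sets by a median of 0.04.

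**Figure D5:**
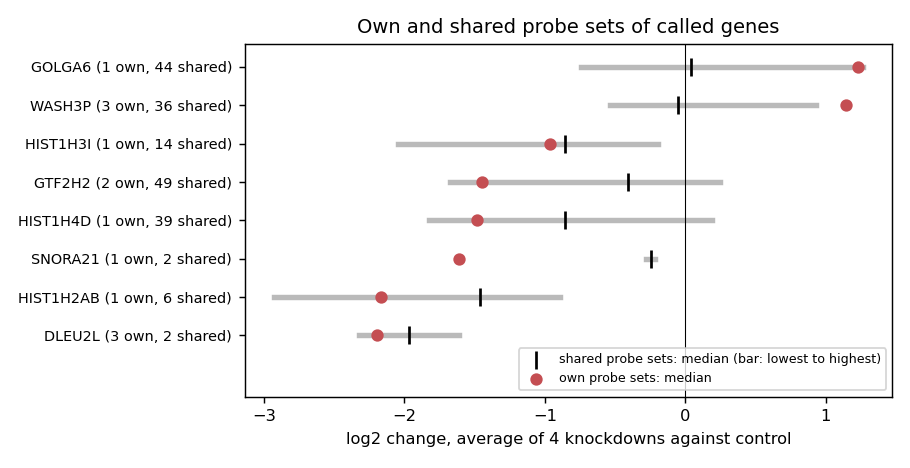
Average change of the gene's own probe sets (red points, median, log2) and of the probe sets it shares with other symbols (bar, lowest to highest; tick, median) for 8 called few-probe-set genes, TCL1B being left out for its low level. For DLEU2L and HIST1H3I own and shared values lie close together, while the own medians of WASH3P and SNORA21 lie outside the shared range.

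Across the 399 few-probe-set genes with shared probe sets, 9 were called on average (2.26%), and across the 747 without them 21 (2.81%). Of all genes, 4.22% were called in that contrast. Of those 9, the shared median had the same sign in 8 and the other sign in 1, WASH3P. HIST1H2AB changed by -2.17 and its 6 shared probe sets by -1.46, and HIST1H4D by -1.48 and its 39 shared probe sets by -0.85, of which 7 were called lower. Signal from near-identical copies cannot be assigned to 1 gene by shared probe sets, and the own probe sets of such genes are also uncertain.

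Some few-probe-set genes were called in 1 or 2 knockdowns and not on average. PLAC8, a small cysteine-rich protein, read 5.94, 6.02 and 4.48 in siNELF-A against 2.98, 4.07 and 3.37 in control, a change of 2.01 (adjusted p = 0.0119), and it was lower than in siNELF-A in siNELF-E, B and C (by 2.19, 2.75 and 1.74, adjusted p = 0.00567, 0.00339 and 0.0312). RNASE4, a secreted ribonuclease whose gene shares its first exons with ANG, read 3.06, 2.94 and 2.79 in siNELF-A against 5.63, 5.03 and 5.32 in control (change -2.39, adjusted p = 0.024), but its differences from the other knockdowns did not pass the test, the smallest adjusted p being 0.116. DUX4C, a double-homeobox gene of a repeat family, rose by 1.31 in siNELF-A and 1.22 in siNELF-C, close to the threshold (adjusted p = 0.0499 and 0.0445), and kept either call in 2 of 15 fits that left out 1 array. The PLAC8 call was lost without siControl replicate 1 or 3 or siNELF-A replicate 1 or 2 (adjusted p up to 0.074), and that of RNASE4 without any 1 of the control or siNELF-A arrays (up to 0.115) and with means of probe sets, where it was -1.23 (0.0591).

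In siNELF-E, PTPN21, a cytoplasmic tyrosine phosphatase, read 7.56, 7.23 and 7.66 against 6.31, 6.41 and 6.10 in control, a change of 1.21 (adjusted p = 0.0159). It was higher in siNELF-E than in siNELF-C, siNELF-B and siNELF-A (by 1.40, 2.03 and 1.41, adjusted p = 0.00843, 0.00168 and 0.00861). SPRYD4 read 8.27, 7.95 and 7.81 against 6.75, 6.75 and 6.92, a change of 1.20 (adjusted p = 0.00928), and was higher than in siNELF-A (0.045) and siNELF-B (0.00168) but not siNELF-C past the threshold (0.0806). GINS4, a subunit of the GINS complex of the replication fork, read 4.45, 4.84 and 3.35 against 6.84, 6.51 and 6.78, a change of -2.50 (adjusted p = 0.0408). GPR146, an orphan receptor, rose from 3.01 to 3.24 in control to 4.24 to 4.58 in siNELF-E (adjusted p = 0.0314). In siNELF-C, the pregnancy-specific glycoprotein gene PSG8 rose by 1.30 (adjusted p = 0.018), from 2.97 to 3.46 in control to 4.14 to 4.74. Its probe sets, at 4.77 and 1.54 in control, changed there by 2.43 and 0.17 (adjusted p = 0.00545 and 0.832 when tested singly). KIAA1147 in siNELF-E, and OR52B4, MS4A1 and OR52N5 in siNELF-B, were called higher at levels that stayed below the 40th percentile: OR52B4 read 0.88 to 1.41 in control and 2.16 to 3.34 in siNELF-B, MS4A1 2.38 to 3.09 and 4.13 to 4.43, OR52N5 1.74 to 2.51 and 3.13 to 4.18, and KIAA1147 0.99 to 1.44 and 1.85 to 2.09 in siNELF-E.

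Most of these calls were lost in some fits with 1 array fewer, while each change kept its sign in every setting in which it was tested. Over those settings the change was 1.07 to 1.33 for SPRYD4, 1.12 to 1.34 for PTPN21, 1.16 to 1.59 for PSG8 and, for GINS4, -2.81 to -1.11, the smallest with means of probe sets (adjusted p = 0.0896). The SPRYD4 call was lost without siNELF-E replicate 1 (adjusted p = 0.0599) and the PTPN21 call without siControl replicate 1 or 3 or siNELF-E replicate 1 or 3 (up to 0.0837). GPR146 lost its call without any 1 of the control or siNELF-E arrays (up to 0.13), and GINS4 in all but 5 of the 15 fits that left out 1 array (up to 0.183). PSG8 lost it without siControl replicate 1 or 3 or siNELF-C replicate 1 or 2 (up to 0.094), and KIAA1147 without siControl replicate 1 or 2 or siNELF-E replicate 2 or 3 (up to 0.0968). The siNELF-B calls of OR52B4, MS4A1 and OR52N5 were each lost without any 1 of the control arrays or siNELF-B replicate 1, at up to 0.143. Of 78 calls in single knockdowns of the few-probe-set genes named here, 22 were kept in all 15 fits.

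The large single-exon receptor families gave the dim end of the class. Of 155 few-probe-set olfactory receptor genes, 152 lay below the 40th percentile, with a median control level of 2.09 and a 95th percentile of 3.97. The median over the family was 1.97 to 2.24 on 14 arrays and 2.50 on siNELF-B replicate 3. None was called in the average contrast, where 4.22% of all genes were called. In siNELF-B 2 were called higher and 1 lower, where 0.106% of all genes were called higher and 3.19% lower. Without siNELF-B replicates 2 and 3, 5 were called higher on average (OR52B4, OR6C76, OR1E1, OR52E2 and OR4D1) and 1 lower (OR2K2), in a fit that called 1.3% of all genes higher and 15.1% lower, and 8 were called higher on the siNELF-B array left (1.07% of all genes). The lower one with all arrays, the pseudogene OR7E37P, was also the brightest, at 7.67, 7.50 and 7.86 in control and 6.41, 6.99 and 6.12 in siNELF-B (adjusted p = 0.0478, kept in 2 of 15 fits that left out 1 array and 0.168 at most). All 18 bitter taste receptors lay below the 40th percentile, and none was called. Of 38 other G protein-coupled receptors, 8 were above it and none was called on average with all arrays.

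Other families with small genes were likewise without average calls when all arrays were used, some of them at levels where calls were made elsewhere. In those fits 4.22% of all genes were called on average and 2.34% to 5.09% in a single knockdown. Most of these families had so few members that an absence of calls does not set them apart from all genes. Of 56 genes for keratin-associated and cornified envelope proteins, which build hair and skin surface, 19 were at or above the 40th percentile, KRTAP5-7 at 7.78, 7.96 and 7.77 in control being the brightest, and none was called in any knockdown. The same held for 10 clustered protocadherins, 9 defensins, 6 chemokines, 4 S100 proteins, 4 cancer-testis antigens, 3 metallothioneins, 2 heat shock proteins and 5 transcription factors of the FOX, SOX, HOX and POU families. Nor were 4 cytosolic and 6 mitochondrial ribosomal proteins, at control levels of 5.46 to 10.3, and 3 subunits of oxidative phosphorylation. Among them were RPL38 at 10.2 in control, which changed by 0.12 (adjusted p = 0.829), and NDUFB8 at 9.09, which changed by -0.21 (0.735). MYC, the 1 immediate early gene with few probe sets, read 4.92, 6.09 and 5.55 in control and 3.10 to 6.37 in the knockdowns, with a change of -0.82 that did not pass the test (0.387). Without siNELF-B replicates 2 and 3 some of these families had average calls. KRTAP8-1 and KRTAP10-1 were called higher (by 0.98 and 0.65, adjusted p = 0.0184 and 0.0215), as were ATP5E (by 0.60, 0.0441), a subunit of ATP synthase, and GPR146 (by 0.78, 0.0161), where 1.3% of all genes were called higher. The protocadherins PCDHGA6 and PCDHB14 were called lower (by 1.30 and 0.84, adjusted p = 0.00101 and 0.0203), as were RPL7A (by 0.73, 0.0271) and MRPS28 (by 0.85, 0.00559), where 15.1% were called lower. In single knockdowns of that fit, MYC was called lower in siNELF-C (by 1.44, adjusted p = 0.0322), MT2A, a metallothionein, in siNELF-C (by 1.06, 0.0143) and NDUFB8 on the 1 siNELF-B array left (by 1.01, 0.0129).

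In all, with all arrays, 363 few-probe-set genes were in a list, of which 11 were called on average. Another 783 were in none, of which 19 were called and 345 were at or above the 40th percentile. Of all genes, 4.22% were called on average.

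The gene values rest on few measurements, and the single probe sets show how far these moved together. Of 845 genes with 2 or 3 probe sets, all had the same sign of average change in 414, and among the 19 called genes in 17. The called genes were picked on the median of these same probe sets, so their agreement in sign is partly given by that choice. The range of change within a gene had a median of 0.47 over the 845 and 0.79 over the 19. A called gene with mixed signs was WASH3P, whose probe sets changed by 0.28, 1.15 and -0.44. Tested singly over all 287329 probe sets, 27 of the 2463 (1.10%) were called, against 0.875% of all and 0.956% in genes with 10 to 49. In the gene-level table of the same arrays, 679 few-probe-set genes had a transcript cluster. There 28 of them (4.12%) were called in the average contrast, beside 4.81% of all clusters. In the exon summary 20 of the 679 were called, and 18 were called in both, all in the same direction. The gene-level table is a second summary of the same hybridisations and not a replicate.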

How the data were processed

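Labelled cDNA from T47D RNA (1 ug, ribosomal RNA removed) was hybridised to Affymetrix human exon arrays, 15 in all. Core exon probe sets were summarised in ArrayAssist by robust multi-array averaging, per the labels, with positions on hg18 and no software version in the sources used here. Values were used as deposited, in log2. Symbols came from the platform annotation: 1 symbol was given for 261273 probe sets, several for 9155, and 16901 had no entry. Of the few-probe-set symbols, 1135 matched a RefSeq symbol, used for current names and gene types.

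A gene's level was the median of its probe sets on each array. Group means over all 15 arrays were fitted with lmFit and eBayes in limma 3.58.1 (R 4.3.3), and the fit was tested on simulated data. Differences between groups came from contrasts of that fit. The number of arrays limits the precision. Replicate numbers did not pair arrays: same-numbered arrays deviated with correlations of -0.38 to 0.22. No column was left unused or identical to another.

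Named genes were the 12 that rose and 12 that fell most on average, the 6 highest and 6 lowest of each knockdown whose arrays lay beyond control, and up to 4 called and 2 bright uncalled members of each gene list; folds are not given where all means lay below the 40th percentile. The members, gene lists and rules were chosen with earlier results of these data known. Alternatives covered scaling, array spread, replicate block, arrays left out, low-level filters, probe set summaries, symbols, thresholds and the variance model.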

Additional observations from a re-analysis of the deposited data

How the results depend on the processing

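Leaving out 1 array gave 4 to 104 calls on average, 14 to 65 in siNELF-E, 3 to 98 in siNELF-C, 4 to 264 in siNELF-B and 4 to 57 in siNELF-A. It gave 0.556% to 22.6% called on average among genes with 10 to 49 probe sets and a difference in median control level of 2.15 to 2.32 (2.23 with all arrays). The lowest counts came without siControl replicate 3 (siNELF-A, siNELF-E and average), siControl replicate 1 (siNELF-B) and siNELF-C replicate 2 (siNELF-C), and the highest on average and in siNELF-B without siNELF-B replicate 2. On average, genes with 10 to 49 probe sets had their lowest and highest shares in the same fits. Without siNELF-B replicates 2 and 3, calls on average also rose over all genes, to a larger share than in few-probe-set genes. Larger counts are therefore not particular to few-probe-set genes. For single knockdowns the share of all genes in these fits is not given here. Of the 30 genes called on average, 6, 14 and 4 kept their call without siControl replicate 1, 2 and 3, and all 30 without siNELF-B replicates 2 and 3. Without those 2 arrays siNELF-B rests on 1 array, assumed to vary like the other groups, and 111 genes were called in it, 77 in siNELF-A, 85 in siNELF-E, 144 in siNELF-C and 92 on average, and 18.9% of genes with 10 to 49.

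Scaling changed the split of calls. The median average change was -0.12 over all genes, 0.05 after quantile normalization, 0.14 after centring arrays on medians and 0.14 after centring on 75th percentiles; for few-probe-set genes it was 0.05, 0.17, 0.31 and 0.31, and for genes with 10 to 49 it was -0.19, 0.01, 0.08 and 0.07, a change of sign. Quantile normalization gave 43 calls in siNELF-E (15 higher, 28 lower, against 5 and 21), 15 higher and 11 lower in siNELF-B, 13 and 14 in siNELF-A, 22 and 17 in siNELF-C and 13 and 24 on average. Centring on medians gave 32 in siNELF-A (15 higher, 17 lower) and 42 in siNELF-E (14 and 28), 17 higher and 8 lower in siNELF-B, 24 and 13 in siNELF-C and 16 and 24 on average, and centring on 75th percentiles gave 32 and 43. With each array's interquartile range in the model there were 67 calls in siNELF-E, 39 in siNELF-A, 5 in siNELF-B and 17 on average, and 2.01% of genes with 10 to 49. After quantile normalization and centring on medians or 75th percentiles, 4.75%, 4.88% and 4.78% of these were called on average, against 4.96% without. Shares of all genes under these settings are not given here. A count alone therefore does not show a change particular to few-probe-set genes.

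With the replicate block, 14 few-probe-set genes were called in siNELF-B and 24 on average, 3.50% of genes with 10 to 49, and HIST1H4D, MORC4, HIST3H2BB, NXPH2, RNF26 and UBE2D3P lost their average call; the numbers do not pair the arrays. Means of probe sets gave 50 calls in siNELF-B and 47 in siNELF-C, and 6.19% of genes with 10 to 49 on average. The share of all genes called with means is not given here, so these counts were not set against it. Single probe sets gave at least 1 call in 3 genes in siNELF-B, 10 in siNELF-C, 10 in siNELF-A and 18 on average. Without genes that share probe sets, 10 remained in siNELF-A. Asking for at least 2-fold gave 2.98% of genes with 10 to 49, and summarising these from 2 probe sets 1.67% or, in an alternative chosen after seeing the data (middle identifiers), 3.19%. Leaving out genes below the 25th or 40th percentile brought the difference in median control level to 0.922 or 0.317. No called average change was reversed under any of these settings; the cause of each move was not tested.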
